A study of Mus musculus with 12 samples.

Results

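The genes described here are 10 members of the Eph and ephrin families: the receptors Epha1, Epha2, Epha4, Ephb2, Ephb3, Ephb4 and Ephb6 and the ligands Efna1, Efnb1 and Efnb2. They were taken by symbol from a count table of 25210 genes, and all 10 were found in it. The cells were mammary epithelial organoids from virgin female FVB/N mice of 8 to 11 weeks, grown in growth-factor-reduced matrigel with minimal medium. For 7 days they received the vehicle dimethyl sulfoxide (DMSO) or CHIR99021 at 1, 1.5 or 3 µM. CHIR99021 blocks the kinase GSK3, which otherwise marks β-catenin for degradation, and it was given to drive WNT/CTNNB1 signalling. Organoids of 3 animals gave 3 cultures, each of which received all 4 treatments, so that each group holds 3 libraries and the series holds 12. Culture 1, 2 or 3 below is the replicate number, and each number stands for 1 animal. The titles also mark these numbers with med, min and max, in this order, and do not say what the words mean. All groups were of 1 strain with no engineered allele named, and all were whole organoids, with no step named that would part cell types.

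Eph receptors are tyrosine kinases that bind ephrins on the surface of neighbouring cells. EphA receptors mostly bind ephrin-A ligands, which are held in the membrane by a lipid anchor, and EphB receptors mostly bind ephrin-B ligands, which span the membrane and can signal back into their own cell. Contact between a receptor cell and a ligand cell often ends in repulsion, which keeps cell layers and territories apart. In the intestine, Ephb2 and Ephb3 are known targets of β-catenin and TCF, and Efnb1 runs opposite to them along the crypt. In the mammary gland, Epha2 is known from branching ducts and Ephb4 and Efnb2 from the ductal epithelium and its vessels.

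The promoters of Epha2 and Ephb3 are shown because these receptors had the largest rise and the largest fall among the 10 genes. Both are from RefSeq on the plus strand of GRCm38.p6. The Epha2 sequence is chr4:141300971-141301220, the 250 bases before the RefSeq start. In the count table the gene starts slightly later, at 141301240. The Ephb3 sequence is chr16:21204545-21204754, which stops where the gene begins in the count table, ahead of its RefSeq start. Capitals mark a match to a TCF/LEF motif.
Epha2: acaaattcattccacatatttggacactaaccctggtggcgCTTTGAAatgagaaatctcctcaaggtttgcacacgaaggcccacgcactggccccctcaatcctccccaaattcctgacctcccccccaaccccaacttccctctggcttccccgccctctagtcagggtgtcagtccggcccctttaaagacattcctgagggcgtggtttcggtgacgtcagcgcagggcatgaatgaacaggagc
Ephb3: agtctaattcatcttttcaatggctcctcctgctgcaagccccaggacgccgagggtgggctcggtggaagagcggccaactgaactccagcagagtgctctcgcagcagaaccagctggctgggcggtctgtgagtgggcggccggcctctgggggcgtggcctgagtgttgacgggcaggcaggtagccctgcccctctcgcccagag
The 4 motifs searched, on both strands, were CTTTGAA, then CTTTGAT, then CTTTGTA and then CTTTGTT. In the 250 bases before the RefSeq start, Epha2 held 1 match, CTTTGAA on the gene's own strand, 209 bases before that start. It was the only 1 of 11 member promoters with a match, and 14.8% of 32851 mouse promoters of the same length held one. A match describes these letters and not a binding site, and the lack of one says only that the letters are not in this window.

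Library totals were 10.1 to 24.5 M counts (M, mega), and all 10 genes passed the filter on low counts. Levels are given as counts per M counts (CPM), after TMM scaling (a trimmed mean of log ratios between libraries), in the order of cultures 1, 2 and 3. Changes were tested with edgeR's quasi-likelihood test over 15316 genes, and a gene is said to rise or fall where the Benjamini-Hochberg adjusted p is below 0.05. Axin2, a feedback target of β-catenin used here to check the treatment, stood at 3.24, 2.74 and 2.26 CPM in DMSO. It reached 132, 67.2 and 52.4 CPM at 3 µM, a log2 fold change of 4.92 ± 0.648 (SE; edgeR adjusted p 0.000147). It belongs to a list of 8 feedback genes, of which Axin2, Rnf43, Znrf3 and Tcf7 rose at 3 µM, Lgr5 fell, and Nkd1, Notum and Lef1 did not pass. Lgr5, a receptor for R-spondins and a known stem cell marker, went from 231, 175 and 155 CPM to 0.470, 0.257 and 0.138 CPM (−9.34, edgeR adjusted p 8.92e-07). The replicate numbers are animals, and a model with the culture as a block is named where it changes a call or count of the named genes or lists. Shares of all genes are without the block unless it is named. In the feedback list the block added Notum to the genes that rose (edgeR adjusted p 0.0298). Notum was near the floor, with 6, 2 and 0 counts in DMSO and 5, 18 and 8 at 3 µM.

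At 3 µM the library of culture 3 differed from those of cultures 1 and 2. It had the highest value of the 3 µM group for 8 of the 10 genes, the exceptions being Ephb2 and Efnb1. The share of all genes with this order was not counted, so the count does not set the 10 genes apart. The summed level of 8 squamous keratinisation markers, all present in each group, was 17285 and 13370 CPM in cultures 1 and 2 at 3 µM and 1028 CPM in culture 3. In DMSO this sum was 24.6, 11.2 and 11.9 CPM, and 8 of the 8 markers rose at 3 µM. At 1 µM the sum was 282, 448 and 63.4 CPM. At 1.5 µM it was 3442, 3758 and 952 CPM, so culture 3 was the lowest at each CHIR99021 dose. The sum of 8 basal markers was 28405, 31299 and 14449 CPM at 3 µM, with Krt5, Krt14 and Trp63 higher than in DMSO and 5 contractile or oxytocin response genes lower. Of 10 luminal markers, 6 fell at 3 µM and the sum went from 3202 to 5403 CPM in DMSO to 2355 to 2639 CPM. The part of these shifts in the changes of the 10 genes was not tested.

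At 3 µM, Epha2, Epha4 and Efnb1 rose, Ephb3 fell, and the other 6 genes did not pass the test. These 4 of 10 genes compare with 57.5% of all genes tested, 29.9% higher and 27.7% lower. With the block the same 4 passed, against 68.9% of all genes. Whether the share of members differs from that of all genes was not tested, and the count does not set the 10 genes apart. Of all genes called, 51.9% were higher, and 38.6% when libraries were scaled by their totals alone; the 4 members kept direction and call under that scaling. The median log2 fold change of the 10 genes was 0.14, against −0.03 over all genes tested. At 1.5 µM, Epha4 was the 1 member that rose, where 27.3% of all genes changed and 15.4% rose. With the block it was again the 1 member that passed, against 46.7% of all genes. At 1 µM, 0 members and 0.242% of all genes passed edgeR's test; at an unadjusted p the 1 member below 0.05 was Epha4, which also passed with the block and with DESeq2. All comparisons with DMSO share the same 3 control libraries. Without 3 µM replicate 3, the log2 fold change of Epha2 at 3 µM was still past the threshold, as it was in 12 of 12 fits that each left out 1 library (1.30 to 1.70). The same held for Efnb1 (0.44 to 0.62) and for Epha4 (0.42 to 0.70).

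**Figure D1:**
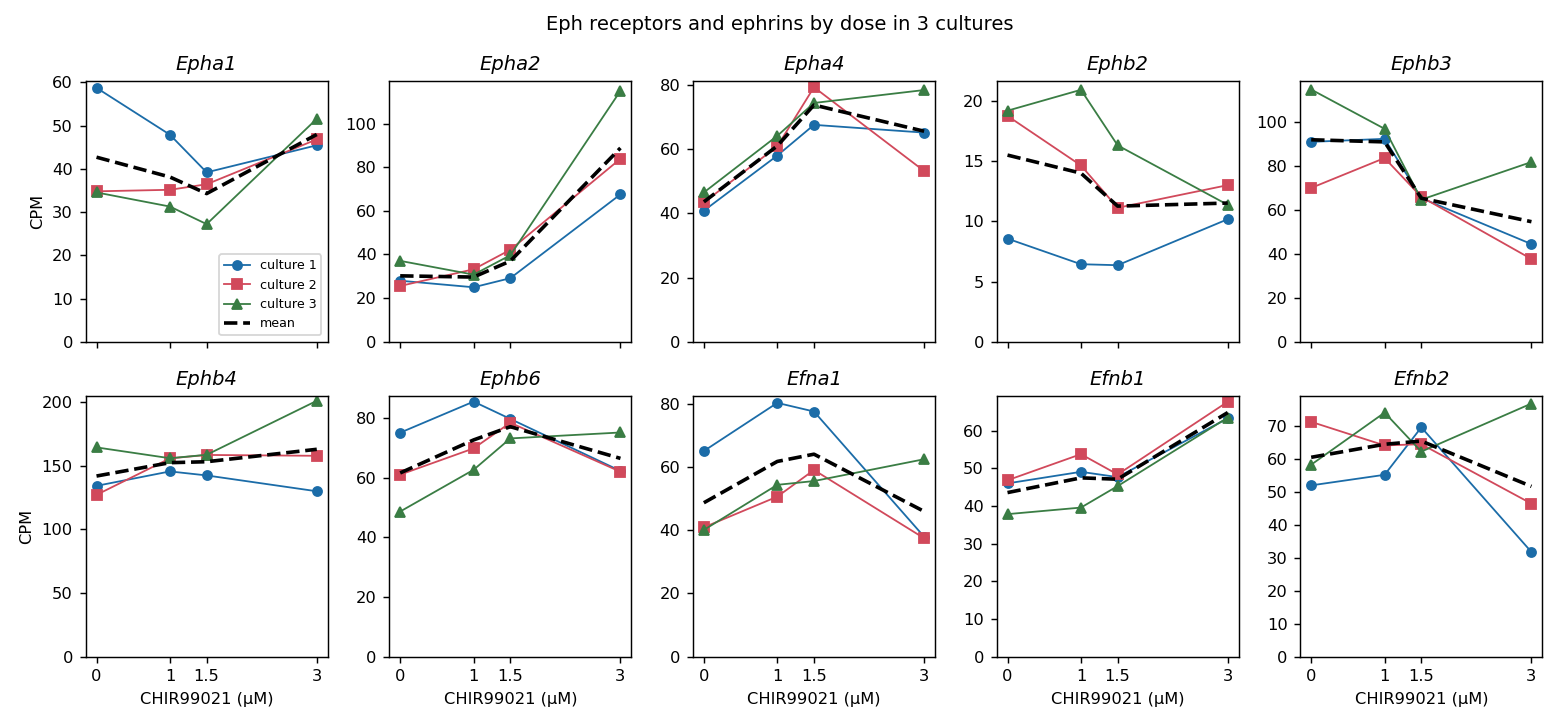
CPM of the 10 genes (y axis, from 0, with a scale of its own in each panel) against the CHIR99021 dose in µM (x axis). Each coloured line joins the libraries of 1 culture and the dashed black line joins the means of 3 libraries. Epha2 stays between 25.0 and 42.2 CPM up to 1.5 µM and lies between 67.6 and 115 CPM at 3 µM.

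Among the EphA receptors, Epha2 had the largest change of the 10 genes. This receptor of ephrin-A1 is best known from keratinocytes and from epithelial tumours. It stood at 28.0, 25.6 and 37.1 CPM in DMSO and at 25.0, 33.2 and 30.8 CPM at 1 µM. It reached 29.1, 42.2 and 39.7 CPM at 1.5 µM and 67.6, 83.9 and 115 CPM at 3 µM. The 3 lowest groups overlapped, while each library at 3 µM lay above all 9 others. The mean rose from 30.2 ± 6.07 to 88.8 ± 24.1 CPM (SD, n = 3), a 2.94-fold increase with a log2 fold change of 1.55 ± 0.228 (SE; edgeR adjusted p 0.000276). The step from 1.5 to 3 µM alone was 2.40-fold (log2 fold change 1.26, edgeR adjusted p 0.00304). Here Epha2 was 1 of 2 members that passed, both higher, against 29.7% of all genes (17% higher). With the block 3 members passed, against 46.7% of all genes. Of all genes called in this step 57.2% were higher, and 21.4% with library totals as the scale. At 1.5 µM against DMSO the log2 fold change of Epha2 was 0.29 with a 95% interval of −0.21 to 0.79.

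Epha4 had its highest mean at 1.5 µM and not at 3 µM. It binds ephrins of both classes and is known from the guidance of axons. Its values were 40.8, 43.4 and 46.5 CPM in DMSO, 58.0, 60.9 and 64.2 CPM at 1 µM, 67.6, 79.4 and 74.4 CPM at 1.5 µM and 65.2, 53.2 and 78.5 CPM at 3 µM. All 9 treated libraries lay above the 3 DMSO libraries. The 1 µM group lay below the whole 1.5 µM group, and the 3 µM group overlapped both. The log2 fold change against DMSO was 0.49 ± 0.130 (SE) at 1 µM, with an edgeR adjusted p of 0.166. This passed with the block (adjusted p 0.0406), a model in which 5.61% of all genes passed. At 1.5 µM the increase was 1.69-fold (0.76 ± 0.130, edgeR adjusted p 0.00263) and at 3 µM 1.50-fold (0.59 ± 0.130, adjusted p 0.00319). Between 3 and 1.5 µM, Epha4 differed by a log2 fold change of −0.17 (edgeR adjusted p 0.345). That difference passed when libraries were scaled by their totals alone (−0.44, edgeR adjusted p 0.0439).

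Epha1, the receptor that gave the family its name, passed at no dose. In DMSO culture 1 was highest with 58.7 CPM, and cultures 2 and 3 had 34.8 and 34.5 CPM. At 1.5 µM the values were 39.2, 36.4 and 27.2 CPM and at 3 µM 45.5, 46.8 and 51.6 CPM. The groups at 1.5 and 3 µM did not overlap, and this step passed with the block (log2 fold change 0.51, edgeR adjusted p 0.0395, in a model in which 46.7% of all genes passed) but not without it (0.48, adjusted p 0.144). Against DMSO the 3 µM value was 0.16 with a 95% interval of −0.35 to 0.68. Exons of Epha1 share 236 bases with Zyx and 2010310C07Rik on the opposite strand.

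Of the EphB receptors, Ephb3 was the 1 that fell. It stood at 91.1, 70.1 and 115 CPM in DMSO and at 92.5, 83.7 and 97.1 CPM at 1 µM. At 1.5 µM the 3 libraries were close together with 65.5, 66.0 and 64.8 CPM, all below the DMSO libraries. At 3 µM the values were 44.5, 37.7 and 81.9 CPM, so that culture 3 was inside the DMSO range and the groups overlapped. Within each culture Ephb3 was lower at 3 µM than in DMSO, by a log2 fold change of −1.03, −0.89 and −0.49. The fitted decrease was 1.68-fold (−0.75 ± 0.264 SE, edgeR adjusted p 0.0320), and with the block the adjusted p was 0.00595. This call was lost with only the 2 groups in the fit (edgeR adjusted p 0.0982). It was also lost without DMSO replicate 1 (0.0591), DMSO replicate 3 (0.102), 3 µM replicate 1 (0.0955) or 3 µM replicate 2 (0.0938), and without 3 µM replicate 3 the log2 fold change was −1.18.

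Ephb2, the close relative of Ephb3, passed the test between cultures and passed at no dose. In DMSO it was at 8.57 CPM in culture 1 and at 18.8 and 19.2 CPM in cultures 2 and 3. The values were 6.44, 14.7 and 20.9 CPM at 1 µM, 6.36, 11.1 and 16.3 CPM at 1.5 µM and 10.2, 13.0 and 11.4 CPM at 3 µM. Culture 1 was lowest at all 4 treatments, and the gap to the others was smallest at 3 µM. No dose passed, and the log2 fold change at 3 µM was −0.42 ± 0.465 (SE) with a wide 95% interval of −1.46 to 0.61. This interval is from the model without the block. With the block the value was −0.32 ± 0.248 (SE; edgeR adjusted p 0.273). Differences between cultures within treatments passed for Ephb2 (range of culture means 1.11 on the log2 scale, edgeR adjusted p 0.0131) and for Epha2 (0.49, adjusted p 0.0435). These are 2 of 10 members against 28.8% of all genes. The Ephb2 call was lost without replicate 1 at 1 µM (edgeR adjusted p 0.0556) or at 1.5 µM (0.05003). For Epha2 it was lost in 8 of the 12 fits that leave out 1 library, with adjusted p up to 0.124, and 5 members passed without 3 µM replicate 3.

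Stromal markers were lowest in culture 1, as Ephb2 was. The summed level of 7 fibroblast or stromal markers, none at 0 in any group, was 1623, 7366 and 20489 CPM in DMSO. At 3 µM it was 175, 971 and 4566 CPM. Of these 7 markers, 0 passed without the block at 3 µM and 6 were lower with it. Their part in the values of Ephb2 was not tested. In bulk RNA, fewer cells of a type and less RNA per cell cannot be told apart.

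Ephb4 and Ephb6 passed at no dose. Ephb4, the receptor of ephrin-B2, had the highest mean level per exon length among the 10 genes in DMSO and at 3 µM, while that of Efna1 was higher at 1 and 1.5 µM. It was at 134, 127 and 164 CPM in DMSO and at 130, 158 and 201 CPM at 3 µM, where the log2 fold change was 0.20 with a 95% interval of −0.13 to 0.53. Ephb6, a receptor whose kinase domain lacks activity, was at 75.0, 61.0 and 48.6 CPM in DMSO and at 62.2, 62.0 and 75.1 CPM at 3 µM. Its log2 fold change was 0.11 with a 95% interval of −0.25 to 0.47. In both genes the DMSO and 3 µM groups overlapped, and culture 3 was the highest at 3 µM. Exons of Ephb4 share 33 bases with Zan on the opposite strand.

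**Figure D2:**
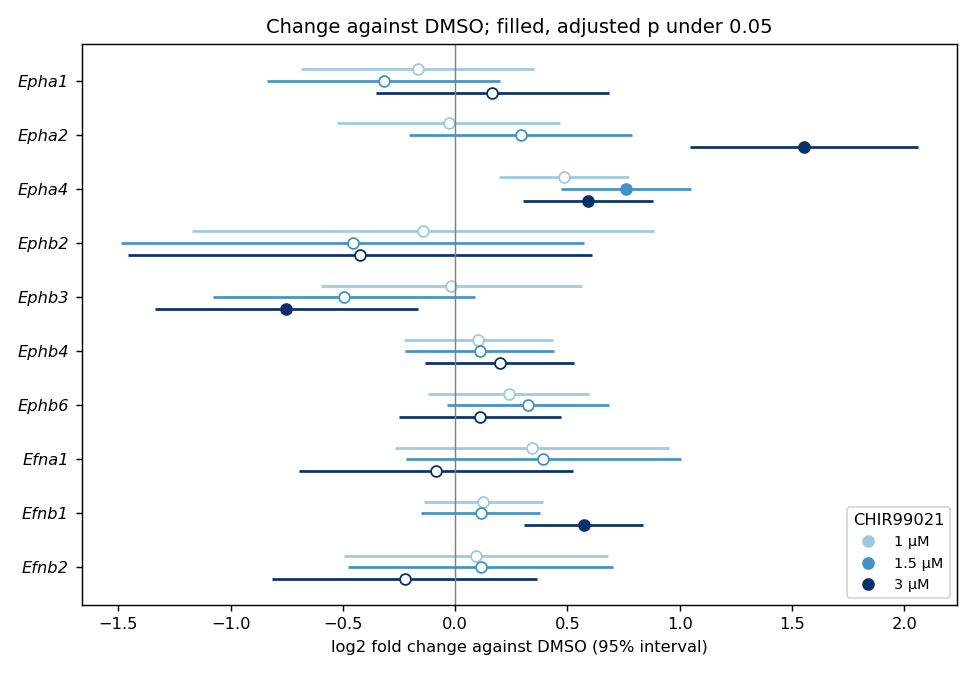
Log2 fold change against DMSO (x axis) of the 10 genes (y axis) at 1, 1.5 and 3 µM, with 95% intervals as lines over 12 libraries. Filled points have an edgeR adjusted p below 0.05: Epha4 at 1.5 µM, and Epha2 (1.55), Epha4 (0.59), Efnb1 (0.57) and Ephb3 (−0.75) at 3 µM.

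Of the 3 ligands, Efnb1 rose and the others did not pass. Efnb1 encodes ephrin-B1, a transmembrane ligand of Ephb2 and Ephb3. It was at 46.0, 46.9 and 37.9 CPM in DMSO, 49.1, 53.8 and 39.6 CPM at 1 µM, 47.7, 48.4 and 45.3 CPM at 1.5 µM and 63.3, 67.7 and 63.5 CPM at 3 µM. The 3 groups up to 1.5 µM overlapped, and all 3 libraries at 3 µM lay above them. The mean rose from 43.6 ± 4.97 to 64.9 ± 2.49 CPM (SD, n = 3), 1.49-fold, with a log2 fold change of 0.57 ± 0.120 (SE; edgeR adjusted p 0.00229). Between 1.5 and 3 µM the log2 fold change was 0.46 (edgeR adjusted p 0.0169). That step was lost with library totals as the scale (0.18, edgeR adjusted p 0.260), with no filter on low counts (adjusted p 0.0520), and without 1.5 µM replicate 3 (0.0542) or 3 µM replicate 2 (0.0594).

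Efna1, the lipid-anchored ligand of Epha2, was higher in culture 1 than in the others up to 1.5 µM. It stood at 65.0, 40.9 and 40.1 CPM in DMSO, 80.2, 50.6 and 54.3 CPM at 1 µM, 77.5, 59.0 and 55.5 CPM at 1.5 µM and 37.9, 37.5 and 62.4 CPM at 3 µM. From DMSO to 3 µM culture 1 went down and culture 3 went up, and the log2 fold change was −0.09 with a 95% interval of −0.70 to 0.53. Efnb2, the ligand of Ephb4, was at 52.0, 71.3 and 58.3 CPM in DMSO and at 31.8, 46.5 and 76.9 CPM at 3 µM. Cultures 1 and 2 were lower at 3 µM than in DMSO and culture 3 was higher. The log2 fold change of Efnb2 was −0.23 (edgeR adjusted p 0.488), and without 3 µM replicate 3 it was −0.65 (adjusted p 0.0168). E230020D15Rik, Gm45073 and Gm45074 overlap Efnb2 on the same strand. Exon bases shared on this strand were not computed, so an effect on the counts of Efnb2 is not known.

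Markers of other cell types were also followed, since vessels are known to carry Ephb4 and Efnb2. The sum of 7 endothelial markers was 280, 586 and 477 CPM in DMSO and 32.2, 70.4 and 100 CPM at 3 µM, and 6 of the 7 fell while Vwf did not pass. With the block Vwf passed as well (log2 fold change −0.71, edgeR adjusted p 0.0405), so that 7 of 7 were lower. Adipocyte markers went from a sum of 2987 to 8048 CPM to 36.0 to 227 CPM, with 4 of 4 lower. Immune markers, of which 5 of 6 were in the table and 3 could be tested, went from 25.5 to 173 CPM to 10.03 to 51.4 CPM, with 2 lower (3 with the block). The part of these cells in the levels of Ephb4 and Efnb2 was not tested.

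Over the 4 doses, the slope per µM passed for the same 4 genes that were called at 3 µM, against 58.2% of all genes (30.2% higher and 28% lower). Epha2 rose by 0.55 ± 0.0880 per µM on the log2 scale (SE; edgeR adjusted p 0.000275) and Efnb1 by 0.19 ± 0.0404 (adjusted p 0.00156). Ephb3 had a slope of −0.27 ± 0.0871 (edgeR adjusted p 0.0173). Epha4 had a slope of 0.19 ± 0.0697 (edgeR adjusted p 0.0370), which was lost with library totals as the scale (adjusted p 0.315) and with no filter on low counts (0.0689). It was also lost without any 1 of the DMSO libraries or without 3 µM replicate 3 (edgeR adjusted p 0.0996 to 0.104), and the Ephb3 slope without 3 µM replicate 1 (0.0574) or 2 (0.05955). Between 3 and 1 µM, 3 members passed, Epha2 and Efnb1 higher and Ephb3 lower (log2 fold change −0.74, edgeR adjusted p 0.0384), against 52% of all genes (27.8% higher and 24.2% lower). Of the genes called 53.5% were higher, and 32.4% with library totals as the scale; for the slope these shares were 51.9% and 38.5%. The Ephb3 call was lost with only the 2 groups fitted (edgeR adjusted p 0.0741) and in 7 of the 12 fits that leave out 1 library (adjusted p up to 0.119). The Efnb1 call was lost with library totals as the scale (edgeR adjusted p 0.254) and with only the 2 groups (0.0564). Between 1.5 and 1 µM, 0 members passed edgeR's test, against 5.43% of all genes, and with the block 0 members and 21.9% of all genes passed. The lowest unadjusted p was 0.0595, for Epha4. DESeq2 called 0 members here, and with only the 2 groups in the fit Ephb3 passed (log2 fold change −0.49, edgeR adjusted p 0.0216).

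Levels of different genes were compared per kb of exon. In DMSO the order was Ephb4 (30.6 ± 4.26 CPM per kb, SD), Efna1 (26.6 ± 7.74), Ephb6 (16.3 ± 3.50), Ephb3 (13.9 ± 3.38), Efnb1 (12.6 ± 1.44) and Epha1 (10.9 ± 3.54). They were followed by Efnb2 (8.84 ± 1.44), Epha2 (6.46 ± 1.30), Epha4 (5.41 ± 0.354) and Ephb2 (1.23 ± 0.477). The libraries of neighbours in this order overlapped, except between Efna1 and Ephb6 and between Epha4 and Ephb2, and Ephb2 lay below all libraries of the other 9 genes. At 3 µM, Epha2 reached 19.0 ± 5.16 CPM per kb and moved up to the level of Efnb1 (18.8 ± 0.722) and Ephb6 (17.6 ± 1.99). The 3 EphA members together went from 22.7 ± 3.15 to 39.4 ± 7.13 CPM per kb, and the 4 EphB members were at 62.0 ± 5.87 and 61.9 ± 12.9. As a share of the per-kb sum of all Eph receptors in the table, Epha2 was 7.01 ± 0.935% in DMSO and 17.9 ± 1.54% at 3 µM. Ephb3 was 14.97 ± 2.43% and 7.64 ± 1.82%, and Ephb4 stayed near 33.3 ± 2.78% and 33.4 ± 1.97%.

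**Figure D3:**
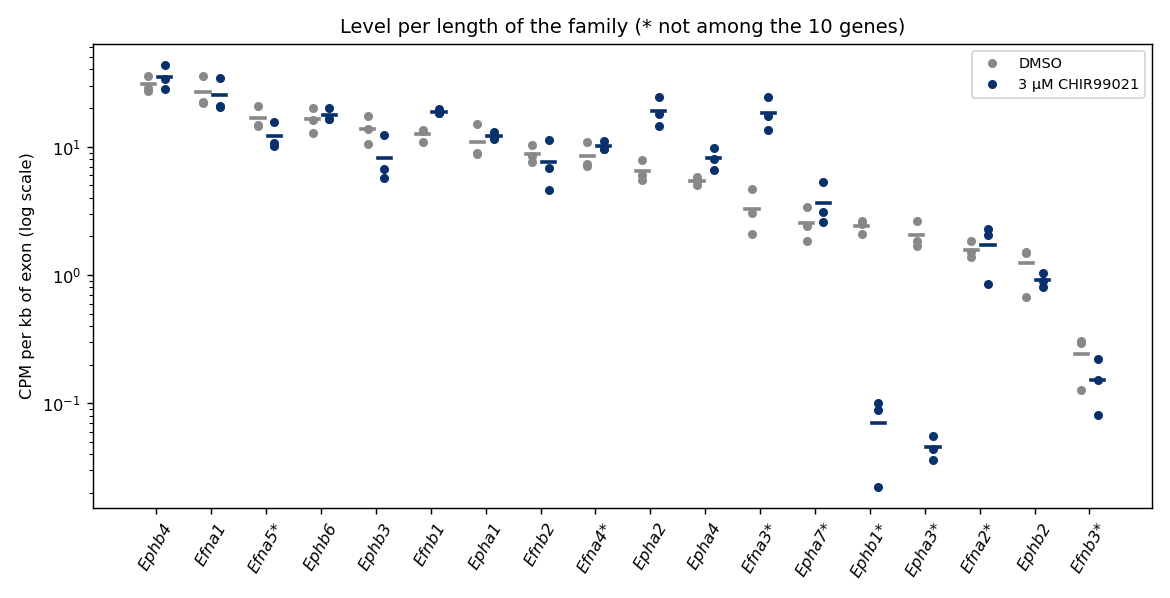
CPM per kb of exon (y axis, log scale) of the family genes above 0.1 in DMSO (x axis, in order of the DMSO mean; asterisks mark genes outside the 10). Points are 3 libraries each in DMSO and at 3 µM, and bars are their means. Epha2 moves from 6.46 to 19.0, and the relatives Epha3 and Ephb1, outside the 10, drop to 0.0453 and 0.0706.

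Ratios of ligand to receptor within a library do not depend on how libraries are scaled. The 4 ratios were tested as slopes of log2 ratio per µM, by exact permutation of the doses within cultures (13824 arrangements, two-sided, smallest possible p 7.23e-05), adjusted over 4. Efna1 to Epha2, per kb, was 5.93, 4.08 and 2.76 in DMSO and 1.43, 1.14 and 1.39 at 3 µM. At 1 µM the ratio was 8.20, 3.89 and 4.51, and at 1.5 µM it was 6.79, 3.575 and 3.575. Both of these groups overlapped DMSO, so the fall lay between 1.5 and 3 µM and was not graded over the doses. The slope was −0.59 per µM (adjusted exact p 0.0184) and the ratio was lower in 3 of 3 cultures at 3 µM than in DMSO. Without any 1 of the 3 libraries at 3 µM this adjusted exact p was 0.0616 to 0.0995. This ratio holds the same counts as the Epha2 rise, and Efna1 itself did not pass at 3 µM. The 5 ephrin-A ligands in the table summed to 56.7 ± 14.4 CPM per kb (SD) in DMSO and 67.4 ± 17.3 at 3 µM.

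Efnb1 to Ephb3 was 0.972, 1.29 and 0.634 in DMSO and 2.74, 3.45 and 1.49 at 3 µM. It rose in 3 of 3 cultures, with a slope of 0.49 per µM (adjusted exact p 0.000579), and it passed in 12 of 12 fits that left out 1 library. Efnb1 rose and Ephb3 fell in these same libraries, so this ratio adds no separate support for either call. At 1.5 µM the ratio was close to equal in the cultures, with 1.40, 1.41 and 1.35, and from there on it was above 1 in all of them. Efnb1 to Ephb2 was 19.6, 9.11 and 7.20 in DMSO and 22.6, 19.0 and 20.3 at 3 µM. Its slope was 0.31 per µM (adjusted exact p 0.0178), lost without DMSO replicate 3 (adjusted exact p 0.119), without 3 µM replicate 1 (0.191), or when doses were permuted over all libraries (adjusted permutation p 0.105). Efnb2 to Ephb4 was 0.263, 0.380 and 0.240 in DMSO and 0.166, 0.200 and 0.259 at 3 µM, with a slope of −0.17 (adjusted exact p 0.0554). It passed with doses permuted over all libraries (adjusted permutation p 0.0460), and without DMSO replicate 1 (adjusted exact p 0.0324), DMSO replicate 3 (0.0370) or 1.5 µM replicate 1 (0.0289).

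**Figure D4:**
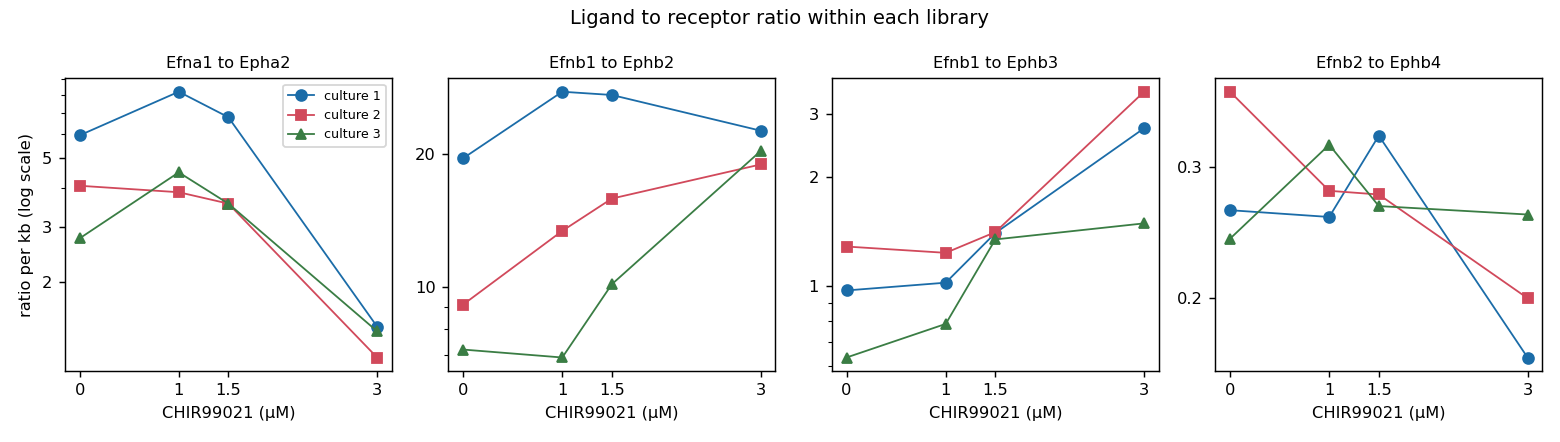
Ratio of ligand to receptor per kb of exon (y axis, log scale, with a scale of its own in each panel) against the CHIR99021 dose in µM (x axis), 1 line per culture. Efna1 to Epha2 ends at 1.14 to 1.43 in the 3 cultures, and Efnb1 to Ephb3 ends at 1.49 to 3.45.

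Of the 12 other genes of the family, 11 were in the table and 8 could be tested. At 3 µM, Efna3 rose, Epha3 and Ephb1 fell, and Epha7, Efna2, Efna4, Efna5 and Efnb3 did not pass; the same 3 genes were called at 1.5 µM. Efna3, an ephrin-A ligand, went from 11.5, 7.41 and 5.06 CPM to 32.6, 42.4 and 59.0 CPM, 5.58-fold (log2 fold change 2.48 ± 0.297 SE, edgeR adjusted p 7.82e-05). It lies on chromosome 3 (89313899 to 89322965) between Efna1 (89271733 to 89281142) and Efna4 (89333390 to 89338028), neither of which passed. Exons of Efna3 share 344 bases with Gm15998 on the opposite strand. Epha7, a receptor, had a log2 fold change of 0.52 that passed with the block (edgeR adjusted p 0.00878) and not without it (0.230), and at 1.5 µM it also passed only with the block (edgeR adjusted p 0.00910).

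Epha3 went from 14.6, 16.1 and 23.1 CPM to 0.313, 0.385 and 0.483 CPM, a log2 fold change of −5.48 ± 0.346 (SE; edgeR adjusted p 2.28e-06). Its counts at 3 µM were 4, 6 and 7. Ephb1 went from 14.7, 18.5 and 17.6 CPM to 0.157, 0.705 and 0.621 CPM (−5.05 ± 0.394, edgeR adjusted p 6.28e-06). Its counts at 3 µM were 2, 11 and 9. Both are receptors, and the falls of both were larger than any change among the 10 genes. The stromal and endothelial sums above fell at the same dose, and their part in Epha3 and Ephb1 was not tested. Epha5, Epha8 and Epha10 never exceeded 10 counts in a library, and Epha6 was not in the table.

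The partners of Eph signalling were taken from lists of known genes. Over all genes tested, 57.5% were called at 3 µM (68.9% with the block) and 27.3% at 1.5 µM (46.7% with it), 15.4% higher and 11.8% lower without it. The 4 lists below had 10 of 20, 5 of 8, 6 of 12 and 8 of 12 genes called at 3 µM, which is near that share, and none is set apart by its count. Of 20 adaptors and kinases that act below the receptors, 6 rose and 4 fell at 3 µM, with a median log2 fold change of −0.0048. The largest rises were of the adaptor Grb7 (0.73), the kinase Abl2 (0.69) and the SRC-family kinase Yes1 (0.53). The largest falls were of the PI3-kinase subunit Pik3r1 (−0.95), the focal adhesion kinase Ptk2 (−0.58) and the adaptor Shc1 (−0.39). At 1.5 µM, 2 rose and 2 fell. With the block 8 were higher and 7 lower at 3 µM, and 3 higher and 5 lower at 1.5 µM.

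Among 8 phosphatases linked to Eph receptors, not all of which act on the receptor itself, 1 rose and 4 fell at 3 µM, with a median of −0.33. Acp1, the low-molecular-weight phosphatase known to act on EphA2, rose 1.85-fold from 57.5, 60.8 and 52.8 CPM to 103, 112 and 102 CPM. Ptprb, the phosphatase of endothelial cells, fell (−2.89), as did Ptprj (−0.78) and Ptpro. Ptpro had 11, 43 and 149 counts in DMSO and 1, 0 and 3 counts at 3 µM (edgeR adjusted p 0.0141). At 1.5 µM, 1 rose and 2 fell. With the block 2 were higher and 4 lower at each of these doses.

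Of 12 partners of ephrin-B inside the ligand's own cell, 5 rose and 1 fell at 3 µM, with a median of 0.28. Ptpn13, a phosphatase with PDZ domains, rose 3.70-fold, from 36.7, 32.4 and 40.4 CPM to 125, 127 and 154 CPM. The PDZ scaffold Grip1 (1.82) and the polarity gene Pard6b (1.23) also rose, and Rgs3 fell (−0.94). At 1.5 µM, 4 rose and 0 fell. The block left 5 higher and 2 lower at 3 µM, and 4 higher and 1 lower at 1.5 µM.

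A list of 12 genes was meant to hold proteases that cut Eph receptors or ephrins, of which 5 rose and 3 fell at 3 µM, with a median of 0.10 that the size of the Mmp7 change does not move. Klk6, a secreted serine protease, went from 6.62, 2.64 and 1.45 CPM to 429, 727 and 344 CPM (log2 fold change 7.09). Mmp9, a matrix metalloprotease, went from 1.07, 1.22 and 6.35 CPM to 61.4, 97.5 and 145 CPM (5.10). Mmp7 had 0 counts in all 3 DMSO libraries and 37, 43 and 24 counts at 3 µM. Of those that fell, Psen2 (−2.08) and Ncstn (−0.36) are parts of γ-secretase. Ntn4 (−3.44) is a netrin and no protease, and was listed in error. At 1.5 µM, 4 rose and 1 fell. In the model with the block 5 were higher and 5 lower at 3 µM, and 5 higher and 3 lower at 1.5 µM. At 1 µM, 0 genes of these 4 lists passed edgeR's test, against 0.242% of all genes. An unadjusted edgeR p below 0.05 was found for 8 of them. The share of all genes below it was not counted, so these 8 do not set the lists apart. With the block 1 ephrin-B partner was higher, and 2 genes of the protease list were higher and 1 lower, in a model in which 5.61% of all genes passed.

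For each of the 10 genes, the gene most like it over the 12 libraries was found by Pearson's r of log2 CPM. Libraries of 1 dose and of 1 culture are not independent, so r is given as a description. The nearest genes were Gm3555 for Epha1 (0.935), Nprl2 for Epha2 (0.980), Snapc4 for Epha4 (0.955), Lca5 for Ephb2 (0.961) and 6720427I07Rik for Ephb3 (0.967). They were Cyba for Ephb4 (0.924), 5033430I15Rik for Ephb6 (0.901), Zfp219 for Efna1 (0.952), Acot13 for Efnb1 (0.951) and Stmn2 for Efnb2 (0.894). Within the 10 genes the highest r were those of Ephb6 with Efna1 (0.851) and Epha2 with Efnb1 (0.756). The lowest were those of Ephb2 with Ephb6 (−0.732) and Ephb3 with Efnb1 (−0.730).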

How the data were processed

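The authors deposited raw counts for each Ensembl gene. They also deposited log2 values, which equal log2 of the count scaled to library size with a small constant added. When recomputed, 0 values differed by over 0.000001, so only the counts were used. Per the submitters' processing notes, TopHat2 2.1, Bowtie 1.1.0, HTSeq and DESeq2 were used with GRCm38/mm10. Libraries were stranded, polyadenylated TruSeq RNA, per the labels' protocols, and whether counting used the strand is not given in the sources used here. No molecular identifiers are described. The printed SDs are taken over the libraries of a group. The SEs and intervals come from edgeR fits over the libraries, so they include variation between libraries as well as counting error.

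Genes were kept with filterByExpr (15316 of 25210), scaled by TMM, and tested with glmQLFit (robust) and glmQLFTest in edgeR 4.0.16 (R 4.3.3), two-sided, with 1 mean per group over all 12 libraries and Benjamini-Hochberg adjustment. Culture differences came from a model of group and replicate. Same-numbered libraries pair by animal (correlation of deviations from group means 0.177 to 0.840 over 18 pairs), and the block is an alternative. Ratios used counts plus 0.5 for the test and exon lengths of GENCODE M21 for the printed per-kb values. DESeq2 1.42.0 was another alternative, and the scripts were tested on simulated data. The 10 members and all lists were chosen with earlier results of these data known. All members are named, and of each list at most the 3 largest called changes in each direction at 3 µM. Replicates within groups differed by more than sampling noise. 1 further list of signalling genes is not reported here.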

Additional observations from a re-analysis of the deposited data

How the results depend on the processing

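The number of members called moved in these settings. With the replicate block it was 1 at 1 µM (0 without it) and 3 for 3 against 1.5 µM (2 without it), and DESeq2 also gave 1 at 1 µM. With only the groups compared in the fit it was 3 at 3 µM against DMSO (4 with all groups), 1 for 1.5 against 1 µM (0 with all groups) and 1 for 3 against 1 µM (3 with all groups). With no filter on low counts it was 1 for 3 against 1.5 µM (2 with it) and 3 for the slope (4 with it). With library size only it was 2 for 3 against 1 µM (3 with TMM) and 3 for the slope (4 with TMM), and for 3 against 1.5 µM it was 2 as with TMM, with Epha4 in place of Efnb1. For culture differences (2 members) it was 1 with library size only, 1 with RLE factors, 1 with no filter and 4 with DESeq2. With 1 library left out the number ran from 0 to 0 at 1 µM, 1 to 2 at 1.5 µM, 3 to 5 at 3 µM, 0 to 0 for 1.5 against 1 µM, 1 to 4 for 3 against 1.5 µM, 2 to 5 for 3 against 1 µM, 3 to 4 for the slope and 0 to 5 for cultures. The upper ends for 3 µM against each other group and for cultures came without 3 µM replicate 3.

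Slopes of the ratios with 1 library left out ran from −0.7256 to −0.4969 for Efna1 to Epha2, 0.2297 to 0.4102 for Efnb1 to Ephb2, 0.393 to 0.585 for Efnb1 to Ephb3 and −0.2159 to −0.107 for Efnb2 to Ephb4. With no replicate block the slopes were the same (0.3086 for Efnb1 to Ephb2 and −0.1697 for Efnb2 to Ephb4), and only the p-values moved. At 3 µM, values that did not pass changed sign with library size only for Epha1 (−0.041) and Ephb6 (−0.089). With 1 library left out they ranged from −0.0049 to 0.47 for Epha1, −0.00091 to 0.32 for Ephb4, −0.072 to 0.28 for Ephb6, −0.39 to 0.18 for Efna1 and −0.65 to 0.0048 for Efnb2. The replicate block changed no other call among the members than those of Epha4 at 1 µM and Epha1 between 1.5 and 3 µM.

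Scaling by library size moved the median of all genes at 3 µM from −0.03 to −0.23 on the log2 scale, and the share of called genes that were higher from 51.9% to 38.6%. Over all genes, counts of calls moved with the block from 37 to 859 at 1 µM, 4177 to 7147 at 1.5 µM, 831 to 3351 for 1.5 against 1 µM and 4544 to 7149 for 3 against 1.5 µM. DESeq2 gave 472 at 1 µM and 1634 for 1.5 against 1 µM. With only the groups compared, 0 genes passed at 1 µM and 2852 for 3 against 1.5 µM, and with no filter 494 for 1.5 against 1 µM. The cause of these moves was not tested.

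With 3 libraries a group and no block, the widest 95% interval at 3 µM, that of Ephb2, ran from −1.46 to 0.61 on the log2 scale. That of Efnb1 ran from 0.31 to 0.84. The block took the SE of Ephb2 from 0.465 to 0.248.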
